A study of Sus scrofa with 9 samples.

Results

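The 9 genes described here belong to the cyclic AMP (cAMP) and protein kinase A (PKA) arm that controls the arrest of a mammalian oocyte in prophase of meiosis. They are GPR3, ADCY3, ADCY9, PDE3A, PRKACA, PRKACB, PRKAR1A, PRKAR2A and AKAP1, and they were chosen by gene symbol. Each had 1 row in a table of 23507 genes, and all 9 were among the 15012 genes tested.

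In a fully grown oocyte, GPR3 is a receptor that signals without an added ligand and keeps adenylyl cyclases making cAMP. The cAMP binds the regulatory subunits of PKA and frees its catalytic subunits, which favour the WEE2 kinase over the CDC25B phosphatase and so keep cyclin-dependent kinase 1 inactive. The phosphodiesterase PDE3A breaks cAMP down, and the oocyte leaves arrest when PDE3A is no longer restrained. The RNA measured here came from oocytes that had already passed this step.

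RNA with a poly(A) tail was sequenced from oocytes of the pig (Sus scrofa), labelled wild type and collected at metaphase II (MII), which had matured in culture with their cumulus cells for 44 to 48 h. Control oocytes matured at 38.5 °C. Heat-stressed oocytes spent the first 24 h, from the germinal vesicle stage, at 41.5 °C and then returned to 38.5 °C. A further group had the same heat with L-Asp (the usual code for L-aspartic acid) in the medium, at 0.5, 1.0 or 1.5 mmol/L by the labels, which do not tie a concentration to the libraries. There were 3 libraries in each group, and 25 oocytes per group by the labels, without their division among libraries or whether animals were pooled. Oligo(dT) priming means that a shorter poly(A) tail and less RNA cannot be told apart, and in bulk libraries neither can fewer cells of a type and less RNA per cell.

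Total counts per library were 41693395 to 58361475. Control libraries differed far less from one another than the other libraries did. Their median index of dispersion was 5.19 to 5.22 between pairs, against 109 to 119 within heat stress and 79.4 to 84.9 within heat stress plus L-Asp. An index of 1 is what independent counts give, and 4 if every fragment gave 4 counts. Low counts in control piled up at multiples of 4 (604 genes at 4 counts in control replicate 1, 330 at 3 and 216 at 5). For this reason the mean of the 3 control libraries stood as 1 sample in every test, and its spread was taken from the other groups. Nothing says that libraries came from separate cultures or animals, so a p-value reflects spread among libraries that may be technical. Of 16 oocyte markers in the table all were tested, and their summed level was 32994 to 33308 CPM in control, 17909 to 22076 CPM after heat stress and 21560 to 24517 CPM with L-Asp. CPM stands for counts after scaling each library to the same total. A few very abundant genes carried that sum, above all BTG4 (15740 to 15900 CPM in control, 5484 to 8803 after heat stress). Of the 16 markers, 4 were higher in all 3 heat stress libraries than in the averaged control, as were 17.3% of all tested genes. OOEP was among them (518 to 520 and 877 to 1109 CPM). BTG4, BMP15, H1-8, GDF9, KPNA7 and TCL1A were lower in all 3, as were 25.0% of all tested genes. The remaining markers lay on both sides of the averaged control.

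Per transcript length, PRKAR1A was the most abundant of the 9 genes in every group, and GPR3 and PRKACA were among the least abundant. FPKM values (fragments per kilobase and library total, as deposited) allow such a comparison between genes. In control libraries PRKAR1A measured 106 ± 0.77 FPKM (SD, n = 3), a level above 97.3% to 97.4% of protein-coding genes in the table. PRKACB followed with 8.08 ± 0.70 FPKM and ADCY3 with 7.08 ± 0.076 FPKM, and their control ranges did not overlap. PDE3A measured 4.97 ± 0.23 FPKM, AKAP1 2.40 ± 0.10 FPKM and PRKAR2A 1.57 ± 0.29 FPKM. ADCY9 (0.66 ± 0.11 FPKM), GPR3 (0.63 ± 0.097 FPKM) and PRKACA (0.58 ± 0.20 FPKM) overlapped one another. The first 6 places of this order were the same by mean FPKM in all 3 groups. After heat stress ADCY3 overlapped both PRKACB and PDE3A, and GPR3 took the last place.

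**Figure D1:**
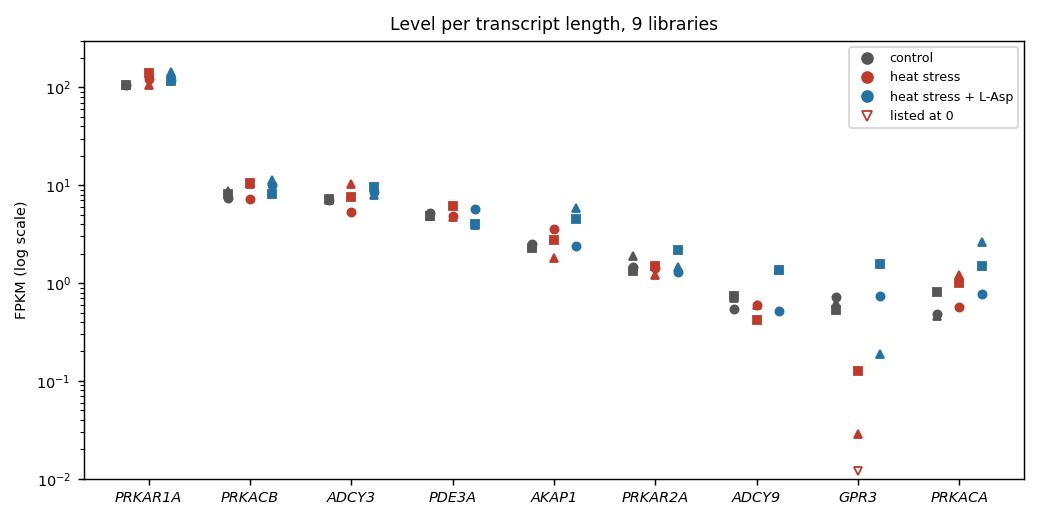
Deposited FPKM (log axis) of the 9 genes in each library, ordered by the control mean. Circles, squares and triangles are replicates 1, 2 and 3, and the open triangle marks GPR3 listed at 0 in heat stress replicate 1. PRKAR1A lies above 100 FPKM in all 9 libraries, and GPR3 is the only gene whose 3 heat stress libraries all lie below both other groups.

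GPR3, the receptor at the head of the pathway, showed the widest difference between groups. The gene (ENSSSCG00000003576, chromosome 6, 84610107 to 84613202, plus strand) had 96, 75 and 87 counts in control replicates 1 to 3. It had 0, 15 and 4 counts in the heat stress libraries, and 89, 187 and 20 counts with L-Asp. In CPM these were 1.94, 1.43 and 1.67 in control, 0, 0.292 and 0.0778 after heat stress, and 1.80, 3.78 and 0.474 with L-Asp. All 3 heat stress libraries lay below every library of the other groups, and L-Asp replicate 3 lay below all control libraries while replicate 2 lay above them.

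These GPR3 values rest on few counts. How many counts a fragment gave in the heat stress libraries was not settled, since the pile at 4 was weaker there (263 genes at 4 counts in replicate 1 and 210 at 3). The 0 counts in heat stress replicate 1 allow up to 0.0608 CPM (3 counts, counting error alone), or 0.243 CPM if each fragment gave 4 counts. For heat stress against control the fitted log2 fold change was -3.74 ± 1.92 (SE), with a 95% interval from -7.96 to 0.49. It did not pass edgeR's quasi-likelihood test (unadjusted p = 0.0775, adjusted p = 1). With L-Asp, relative to heat stress alone, the log2 fold change was 4.004 ± 1.68 (SE), with an interval from 0.31 to 7.70, and did not pass either (edgeR, unadjusted p = 0.0362, adjusted p = 0.738). DESeq2 gave GPR3 adjusted p-values of 0.858 and 0.178 for the same 2 comparisons, which share the heat stress libraries. Against control, L-Asp libraries differed by 0.27 ± 2.13 (SE) on the log2 scale, and without L-Asp replicate 2 by -0.55. A fold change against libraries at or near 0 depends on the prior count and has no firm size.

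The other cell types that the oocytes were cultured with were also traced. Of 24 cumulus and granulosa markers in the table, 18 were tested. Over all 24, tested or not, 10 were higher in all 3 heat stress libraries than in the averaged control, as were 17.3% of all tested genes. INHBA and GATA6 were among them, against a control of 0. So were CYP11A1 (0 to 0.116 CPM in control, 5.98 to 15.1 after heat stress), GJA1 (0.191 to 1.56 and 6.97 to 13.4) and VIM (0 to 0.223 and 2.06 to 5.55). FST (48.5 to 50.3 and 24.8 to 43.4 CPM) and NR5A1, near 0 throughout, were lower in all 3 than the averaged control. With L-Asp 4 of the 24 were lower in all 3 libraries than in the heat stress libraries (5.54% of all tested genes) and 0 were higher (6.31%). Their summed level was 1193 to 1231 CPM in control, 1226 to 1614 CPM after heat stress and 1212 to 1256 CPM with L-Asp. Without RGS2, the most abundant of them, it was 268 to 277, 241 to 373 and 322 to 407 CPM. VCAN, GATA4 and FST carried most of that remainder (127, 86.9 and 49.0 CPM in control replicate 1), so the sum says little about the scarcer markers. PTX3 was at 0 in all 9 libraries, and INHBA, INHBB, GATA6, LHCGR and AMH were at 0 in all control libraries. Summed markers of theca and stroma (7 in the table) ran from 4.75 to 12.5 CPM over the 9 libraries, those of blood and immune cells (4) from 0.117 to 5.10 CPM and those of endothelium (2) from 3.20 to 10.8 CPM. The part of these cells in the levels of the 9 genes was not tested.

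**Figure D2:**
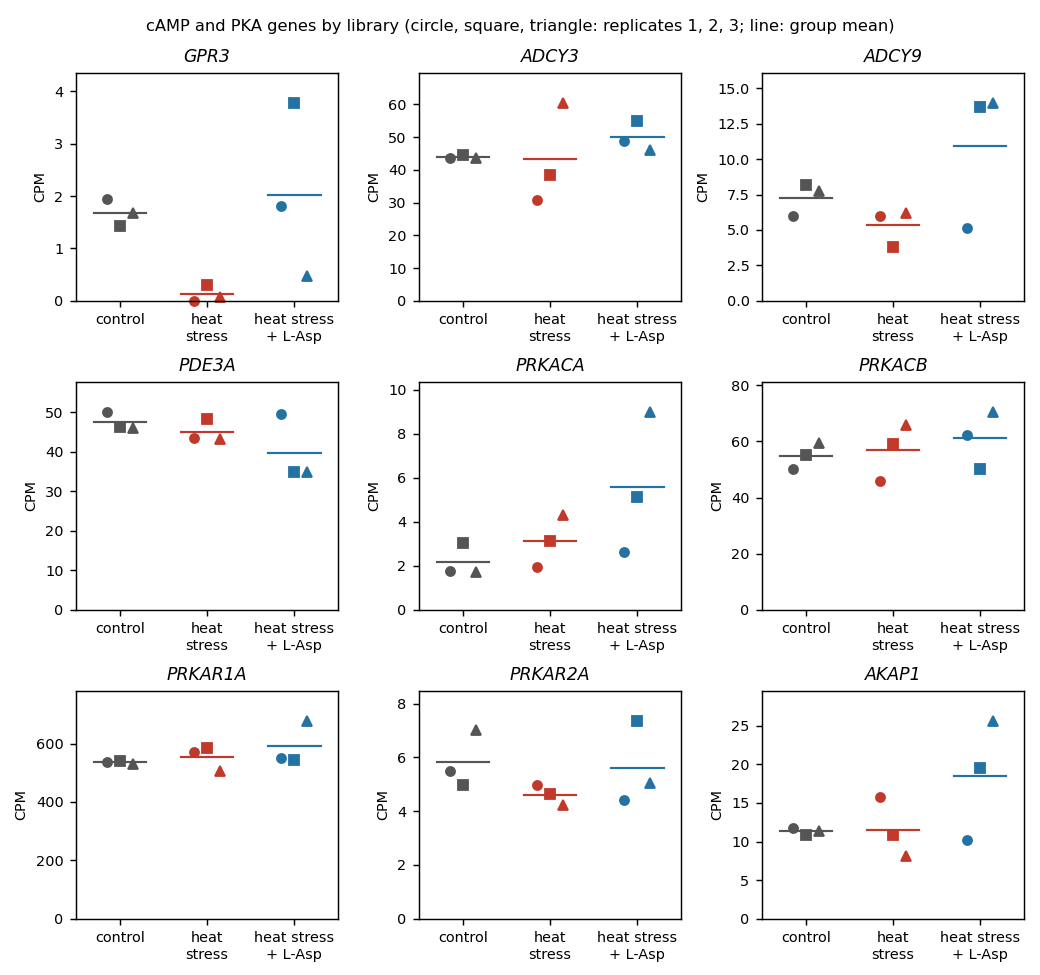
CPM (linear axes from 0) of the 9 genes in each library, with the mean of each group as a line. In GPR3 all 3 heat stress libraries lie at or below 0.292 CPM, below every library of the other groups, which no other panel shows.

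Adenylyl cyclases make cAMP, and 2 of them were listed. ADCY3 (ENSSSCG00000008578, chromosome 3, 113876339 to 113982369) measured 43.6, 44.5 and 43.7 CPM in control, 30.9, 38.5 and 60.5 after heat stress and 48.7, 55.1 and 46.2 CPM with L-Asp. The heat stress libraries thus lay on both sides of control. It overlaps CENPO on the opposite strand, and this preparation does not mark strand, so reads of the 2 genes in the overlap cannot be told apart. Its log2 fold change was -0.022 ± 0.40 (SE) for heat stress against control, and it was above 0 under the other 3 scalings tried.

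ADCY9 (ENSSSCG00000007950, chromosome 3, 38103923 to 38303538) is the less abundant cyclase. It measured 5.97, 8.14 and 7.72 CPM in control, 6.02, 3.82 and 6.21 after heat stress, and 5.17, 13.7 and 14.0 CPM with L-Asp. L-Asp replicates 2 and 3 lay above every other library, and replicate 1 lay among the heat stress libraries. With L-Asp, relative to heat stress alone, the log2 fold change was 1.03 ± 0.49 (SE), with an interval from -0.052 to 2.12 (edgeR, unadjusted p = 0.0601, adjusted p = 0.738). ADCY3 made up 90.6% to 92.8% of the summed FPKM of both cyclases in control, 90.1% to 94.7% after heat stress and 85.4% to 94.3% with L-Asp.

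PDE3A, the phosphodiesterase whose activity lets cAMP fall before the oocyte leaves arrest, differed little between groups. The gene (ENSSSCG00000028662, chromosome 5, 52409882 to 52738406) measured 50.1, 46.2 and 46.0 CPM in the control libraries and 43.4, 48.4 and 43.1 CPM in those after heat stress. With L-Asp it measured 49.6, 34.9 and 34.8 CPM, so that replicate 1 lay beside control and replicates 2 and 3 lay below all other libraries. Its log2 fold change was -0.075 for heat stress against control (interval from -0.85 to 0.70) and -0.18 for L-Asp against heat stress (interval from -0.73 to 0.37). It was the only one of the 9 genes below 0 in the latter comparison. Relative to GPR3, its spread within heat stress was narrow, at a coefficient of variation of 6.58% against 123%, where the median over all tested genes was 40.98%. These coefficients include counting error, which is far larger for GPR3 (0, 15 and 4 counts) than for PDE3A (2142, 2483 and 2217 counts).

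The catalytic subunits of PKA carry the kinase activity. PRKACB (ENSSSCG00000040920, chromosome 6, 129520376 to 129593658) measured 50.2, 55.3 and 59.4 CPM in control, 45.8, 59.1 and 66.0 after heat stress, and 62.4, 50.2 and 70.5 CPM with L-Asp. The 3 groups overlapped. PRKACA (ENSSSCG00000013771, chromosome 2, 65074870 to 65095551) was much lower, at 1.78, 3.01 and 1.73 CPM in control, 1.94, 3.12 and 4.30 after heat stress, and 2.61, 5.11 and 8.999 CPM with L-Asp. L-Asp replicates 2 and 3 lay above all other libraries. For PRKACA the log2 fold change of L-Asp libraries was 1.35 ± 0.98 (SE) against control (edgeR, unadjusted p = 0.197) and 0.84 ± 0.64 (SE) against heat stress (unadjusted p = 0.219), and it passed in neither comparison (adjusted p = 1 and 0.837). Without L-Asp replicate 3 these values were 0.82 and 0.31. These 2 subunits are close paralogs, and how shared reads were counted was not stated in the labels.

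Regulatory subunits hold the catalytic subunits inactive until cAMP binds. PRKAR1A (ENSSSCG00000017259, chromosome 12, 11662347 to 11681373) measured 538, 541 and 531 CPM in control, 571, 584 and 507 after heat stress, and 552, 544 and 678 CPM with L-Asp. Its interval was the narrowest of the 9 genes, from -0.54 to 0.63 on the log2 scale for heat stress against control and from -0.32 to 0.50 for L-Asp against heat stress. PRKAR2A (ENSSSCG00000011363, chromosome 13, 31426213 to 31517122) measured 5.49, 4.96 and 7.01 CPM in control, 4.98, 4.64 and 4.22 after heat stress, and 4.40, 7.36 and 5.04 CPM with L-Asp. The heat stress libraries lay below the averaged control of 5.81 CPM, while heat stress replicate 1 lay above control replicate 2.

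AKAP1 anchors PKA to the outer mitochondrial membrane. The gene (ENSSSCG00000034994, chromosome 12, 33396473 to 33411440) measured 11.7, 10.8 and 11.4 CPM in the control libraries and 15.8, 10.8 and 8.07 CPM in those after heat stress, on both sides of control. With L-Asp it measured 10.2, 19.5 and 25.6 CPM, a log2 fold change of 0.68 ± 0.42 (SE) against heat stress (edgeR, unadjusted p = 0.136, adjusted p = 0.771). That value was 0.36 without L-Asp replicate 3 and 0.97 without heat stress replicate 1, as it was without L-Asp replicate 1. L-Asp replicates 2 and 3 were thus the 2 highest of the 9 libraries for ADCY9, PRKACA and AKAP1, and the 2 lowest for PDE3A.

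By mRNA, PRKAR1A and PRKACB dominated the PKA subunits listed. In control, PRKAR1A made up 98.2% to 98.8% of the FPKM of PRKAR1A and PRKAR2A (regulatory FPKM). PRKACB made up 90.9% to 94.97% of that of PRKACA and PRKACB (catalytic FPKM). These sums leave out PRKAR2B, a regulatory subunit named here after its values were seen. Its level was 4.05 ± 0.40 FPKM in control, 6.70 ± 1.74 after heat stress and 5.10 ± 2.25 with L-Asp (SD, n = 3), above the mean of PRKAR2A in each group. In CPM, the scale for comparing groups, PRKAR2B measured 16.7 in control, 24.7 ± 4.47 after heat stress and 19.4 ± 8.39 with L-Asp. Its log2 fold change was 0.56 for heat stress against control (edgeR, unadjusted p = 0.305). The summed FPKM of PRKACA and PRKACB was 0.0808 ± 0.0069 of that of PRKAR1A and PRKAR2A in control (SD, n = 3), 0.0844 ± 0.022 after heat stress and 0.0883 ± 0.0074 with L-Asp. These ranges overlapped, and no test was made of this ratio. With L-Asp the share of PRKACB in the catalytic FPKM was 92.9%, 84.3% and 81.1% in replicates 1 to 3, so that replicates 2 and 3 lay below the 89.3% to 92.8% of the heat stress libraries.

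**Figure D3:**
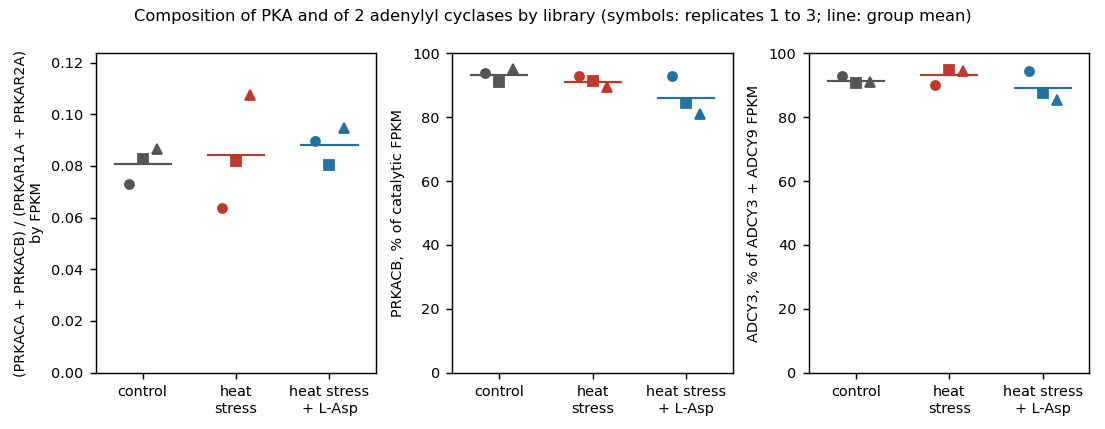
Ratio of PRKACA and PRKACB to PRKAR1A and PRKAR2A by summed FPKM (left), share of PRKACB in the sum of PRKACA and PRKACB (middle) and share of ADCY3 in the sum of ADCY3 and ADCY9 (right) in each library, with group means as lines. PRKAR2B is not in the ratio. The ratio stays between 0.0638 and 0.107 in all 9 libraries.

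For heat stress against control, which asks what early heat left in the RNA of mature oocytes, 0 of the 9 genes passed and none had an unadjusted p under 0.05. Over all genes edgeR called 0 of 15012 (0%), with 579 genes (3.86%) at an unadjusted p under 0.05, and DESeq2 called 183 (1.13% of those with an adjusted p), none of them among the 9 genes. Of the 9 genes, 4 lay above a log2 fold change of 0, as did 50.1% of all tested genes, and 5 lay below, with a median of -0.022 against 0.0016 over all tested genes. GPR3, ADCY9 and PRKAR2A were lower in all 3 heat stress libraries than the averaged control, as were 25.0% of all tested genes, and none of the 9 was higher in all 3, as were 17.3%. Apart from GPR3, log2 fold changes ran from -0.45 (ADCY9) to 0.51 (PRKACA), and 5 of these 8 lay within 0.1 of 0. The intervals, such as -1.54 to 2.56 for PRKACA, leave room for sizeable differences in either direction.

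The comparison of L-Asp with heat stress alone addresses the effect of the compound under heat. Here 8 of the 9 genes lay above 0, as did 49.0% of all tested genes, with a median log2 fold change of 0.28 against -0.010 over all of them. Taken for each L-Asp library against the mean of heat stress, the median had an SD of 0.337 (n = 3). The fitted median was 0.48 without heat stress replicate 3 and 0.43 without L-Asp replicate 1, and without L-Asp replicate 3 the tally was 6 above and 3 below 0. By edgeR 0 of 15012 genes (0%) passed, 993 (6.61%) had an unadjusted p under 0.05, and of the 9 genes only GPR3 was among these. DESeq2 called 179 genes (0.934% of those with an adjusted p) and none of the 9. GPR3 was also the only one of the 9 whose 3 L-Asp libraries all lay above the 3 heat stress libraries, as did 6.31% of tested genes, and none of the 9 lay wholly below, as did 5.54%.

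The comparison of L-Asp libraries with control addresses the difference that remained from unheated oocytes. None of the 9 genes passed (edgeR, adjusted p = 1 for each), where edgeR called 0 of 15012 genes (0%) with 484 (3.22%) at an unadjusted p under 0.05, and DESeq2 called 64 (0.386% of those with an adjusted p). By fold change 7 lay above 0, as did 50.5% of all tested genes, and 2 below, with a median of 0.19 against 0.0067 over all tested genes. ADCY3, PRKACA and PRKAR1A were higher in all 3 L-Asp libraries than the averaged control, as were 19.0% of all tested genes, and none of the 9 was lower in all 3, as were 26.0%. This comparison shares its control with the first and its L-Asp libraries with the second.

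**Figure D4:**
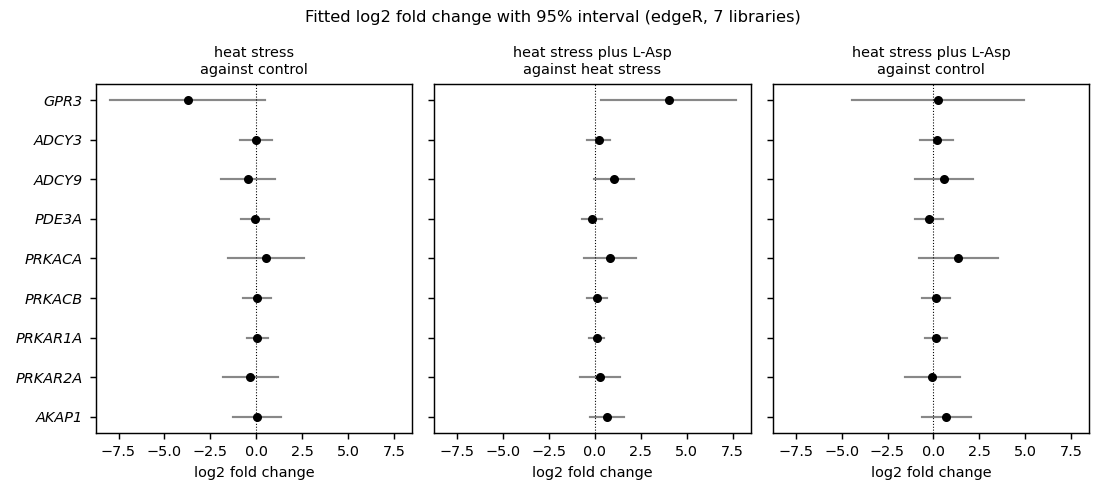
Fitted log2 fold changes (points) with 95% intervals (lines) of the 9 genes in the 3 comparisons, by edgeR on 7 libraries. The interval of GPR3 reaches from 0.31 to 7.70 for L-Asp against heat stress, and every other interval in the 3 panels includes 0.

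Other genes of cAMP signalling and prophase arrest were taken from a list of 108, of which 89 had a row under that symbol and 79 were tested. None of the 79 passed in any comparison (edgeR). For heat stress against control 33 lay above and 46 below 0 (median log2 fold change -0.11), and 3 of 79 (3.797%) had an unadjusted p under 0.05, where 3.86% of all tested genes did. For L-Asp against heat stress 47 lay above and 32 below 0 (median 0.11), with 6 of 79 (7.59%) at an unadjusted p under 0.05 beside 6.61% of all tested genes. L-Asp against control had 41 above and 38 below 0 (median 0.027), with 1 of 79 (1.27%) beside 3.22%.

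Genes of cAMP production and its G proteins lay mostly below 0 for heat stress against control (11 of 14, median -0.43) and mostly above 0 for L-Asp against heat stress (10 of 14, median 0.18), where 50.1% and 49.0% of all tested genes lay above 0. The cell cycle targets of arrest gave a similar tally, with 13 of 17 below 0 and then 11 of 17 above 0. Both comparisons use the heat stress libraries, so opposite signs in them are not separate observations. The first group mixes cyclases with inhibitory G protein subunits such as GNAI1 and GNAI2, so its tally gives no direction of cAMP production. It also holds ADCY2, ADCY5, ADCY7, ADCY8 and GNAZ, at only 0.449 to 0.780 CPM in the averaged control. For heat stress against control their log2 fold changes had an SE of 2.07 to 3.76. ADCY6, another adenylyl cyclase, measured 6.32, 5.76 and 6.51 CPM in control, 2.05, 1.50 and 3.25 after heat stress, and 3.79, 5.58 and 24.4 CPM with L-Asp. All its heat stress libraries lay below the other groups, and L-Asp replicate 3 lay far above every other library (log2 fold change 2.31 against heat stress, edgeR, unadjusted p = 0.00817). GNAI1, an inhibitory G protein subunit and the group's highest gene by FPKM, measured 81.7 CPM in control, 81.2 ± 17.6 after heat stress and 67.1 ± 17.6 with L-Asp (SD, n = 3). GPR12, a close relative of GPR3 named here after its values were seen, measured 2.41, 2.16 and 1.98 CPM in control, 1.88, 1.77 and 0.837 after heat stress, and 0.973, 1.01 and 0.805 CPM with L-Asp. In GPR12 the L-Asp libraries lay beside or below the heat stress libraries, unlike the order seen in GPR3, and the difference between the 2 genes was not tested.

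Among 17 tested phosphodiesterases, 8 lay above and 9 below 0 for heat stress against control. PDE8A, which degrades cAMP and was the highest of them by FPKM, measured 79.9 CPM in control, 96.4 ± 15.1 after heat stress and 85.7 ± 8.60 with L-Asp (SD, n = 3). Its relative PDE8B measured 75.5, 52.5 ± 19.7 and 38.2 ± 10.2 CPM, with an unadjusted p of 0.0394 for L-Asp against control (edgeR). PDE5A, which degrades cGMP, measured 12.5, 22.9 ± 4.22 and 14.8 ± 7.18 CPM. PKIG, an inhibitor of PKA, measured 31.4, 33.7 ± 11.1 and 25.9 ± 8.16 CPM.

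Of the anchoring proteins, AKAP5 had 0, 20 and 8 counts in control, 263, 451 and 174 after heat stress, and 112, 29 and 7 with L-Asp. Its heat stress libraries lay above the other 6 (log2 fold change 5.03 against control, edgeR, unadjusted p = 0.0166, and -2.53 for L-Asp against heat stress, unadjusted p = 0.0228), and the control level rests on few fragments. The centrosomal anchor AKAP9 measured 402, 387 ± 145 and 251 ± 63.0 CPM, and EZR, a linker of actin to the membrane, 158, 132 ± 53.7 and 113 ± 26.7 CPM. Among transcriptional partners, the CREB coactivator CRTC3 measured 17.2, 17.0 and 17.5 CPM in control, 8.04, 6.88 and 6.83 after heat stress, and 10.2, 13.7 and 13.7 CPM with L-Asp, 3 ranges that did not overlap (heat stress against control, edgeR, unadjusted p = 0.0205). ATF1 measured 11.2, 11.7 ± 0.43 and 18.5 ± 5.81 CPM, and CRTC2 11.2, 12.5 ± 10.0 and 20.4 ± 9.20 CPM.

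Downstream, the PKA substrate WEE2 measured 1718, 1758 and 1758 CPM in control, 905, 832 and 1059 after heat stress, and 1274, 1567 and 2039 CPM with L-Asp. Its heat stress libraries lay below the other 6 (log2 fold change -0.90 against control, edgeR, unadjusted p = 0.00987, and 0.80 for L-Asp against heat stress, unadjusted p = 0.00344). CCNB2, a cyclin that activates cyclin-dependent kinase 1, measured 170 CPM in control, 132 ± 35.1 after heat stress and 103 ± 27.1 with L-Asp (SD, n = 3).

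**Figure D5:**
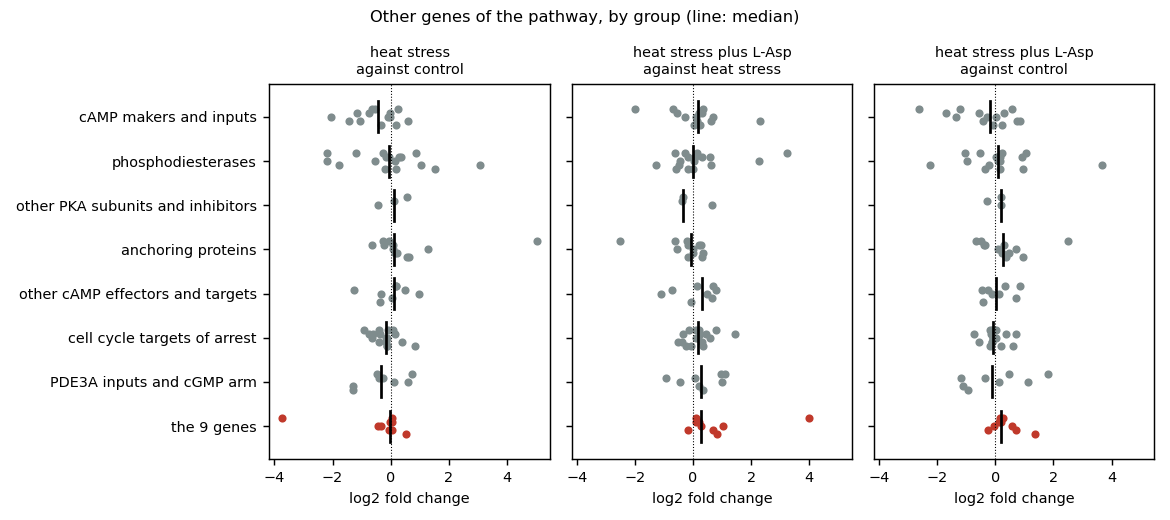
Fitted log2 fold changes of 79 other genes of the pathway by group (grey points, median as a line) and of the 9 genes (red) in the 3 comparisons. The group of cAMP makers and inputs has its median at -0.43 for heat stress against control and at 0.18 for L-Asp against heat stress. That group includes inhibitory G protein subunits and genes with few counts. No gene shown passed the test.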

How the data were processed

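All values came from 1 table, which per the file headers gives each gene a count and an FPKM value in each library, computed by the authors. The deposited counts were tested as they stand, and the deposited FPKM values served to compare levels between genes. The submitters' processing notes list DESeq2, edgeR, StringTie 2.1.6, HISAT2 2.2.1 and cutadapt 1.9 without roles. For the genome build of the coordinates and the counting method: not given in the sources used here. Per the labels' protocols, cDNA was primed with oligo(dT) and amplified by PCR, with no molecular identifiers described, so intervals and floors cover counting error only. A further 6 columns of per-sample values were left aside.

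The 3 control libraries were replaced by their rounded mean count, since pairs of them (genes with at least 40 counts summed over the pair) differed far less than pairs within the other groups. Genes were filtered by filterByExpr on the 9 libraries, scaled by TMM (trimmed mean of M values) and tested with edgeR 4.0.16 (glmQLFit, robust, glmQLFTest), 1 mean per group, on 7 libraries with 4 residual degrees of freedom. A call was an adjusted p (Benjamini-Hochberg over all 15012 genes) under 0.05. The SE is the log2 fold change divided by the square root of F, and intervals are 95%. CPM of single control libraries use the scaling factor of the averaged control. DESeq2 1.42.0, other scalings, other filters, 9 libraries, a replicate block and leaving out each library were alternatives. The test of L-Asp against heat stress was also run on simulated counts. Of 200 genes changed 4-fold it called 152, with 14 false calls, and of 200 changed 16-fold it called 194, with 8 false calls. The changed genes were drawn from the more abundant ones, so this does not cover genes with as few counts as GPR3.

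The 9 genes, the pathway list and the marker lists were chosen with earlier results of these data known. The text names the 9 genes, and from the pathway list called genes or else the 2 of smallest unadjusted p per comparison and direction, plus the gene of highest FPKM in each group. One gene that this rule gives is not reported here. Genes most like GPR3 and PDE3A were the 3 of highest Pearson correlation.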

Additional observations from a re-analysis of the deposited data

How the results depend on the processing

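None of the 9 genes passed under any of the 19 alternatives in any of the 3 comparisons (57 counts of 0), and the smallest adjusted p of any of them was 0.157 (GPR3, heat stress against control, 9 libraries). Of 513 fold changes of the 9 genes under alternatives, 494 kept their direction. Counts over all genes, 0 in each comparison, depended on the fit. For heat stress against control they were 433 with 9 libraries, 183 with DESeq2, 9 with no filter and 1 with the replicate block. For L-Asp against heat stress they were 2 with 9 libraries, with no filter or with the filter on 7 libraries, and 179 with DESeq2. For L-Asp against control they were 269 with 9 libraries, 64 with DESeq2, 3 with no filter, and 1 with only the 2 groups compared or with the replicate block. Leaving out 1 library gave 0 to 1, 0 to 3 and 0 to 1 calls in the 3 comparisons. Same-numbered heat stress and L-Asp libraries did not deviate together (correlations across genes 0.052, -0.021 and 0.010). This gave no sign of pairing by number but cannot exclude it, and the labels do not settle it. Under the replicate block GPR3 had log2 fold changes of -4.33, 4.35 and 0.024 in the 3 comparisons.

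Library totals with no scaling factor moved the median log2 fold change of all genes by 0.18 (heat stress against control) and 0.17 (L-Asp against control), that of the 9 genes to 0.15 and 0.36, and turned ADCY3 (0.15) and PDE3A (0.12) for heat stress and PRKAR2A (0.12) for L-Asp against control. ADCY3 for heat stress was 0.014 with RLE scaling, 0.016 with upper-quartile scaling and 0.013 with DESeq2. Leaving out 1 library changed the sign of values near 0. Ranges for heat stress against control were -0.35 to 0.17 for ADCY3, -0.074 to 0.18 for PRKACB and -0.26 to 0.22 for AKAP1. For L-Asp against heat stress they were -0.035 to 0.24 for PRKACB and -0.016 to 0.17 for PRKAR1A, and for L-Asp against control -0.29 to 0.10 for PRKAR2A and -0.55 to 0.73 for GPR3.

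GPR3 lay below 0 for heat stress against control under all 19 alternatives (-5.33 to -3.16, unadjusted p 0.0152 to 0.198). The lowest of these p-values came from the edgeR fit that counted each control library as a replicate. GPR3 lay above 0 for L-Asp against heat stress under all 19 (3.18 to 5.60, unadjusted p 0.00311 to 0.157, under 0.05 in 14). The alternatives refit the same libraries, so these tallies are not separate observations. The few counts of GPR3 per library limit what can be said of the size of its fold changes.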

Other observations

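Genes whose log2 CPM followed GPR3 most closely over the 7 libraries, among 5758 with a symbol and a mean of at least 10 CPM, were UBE2R2 (Pearson r = 0.935), SEC31A (r = 0.915) and ABL2 (r = 0.914). UBE2R2, a ubiquitin-conjugating enzyme, measured 22.9 CPM in control, 15.6 ± 4.45 after heat stress and 21.3 ± 2.35 in the L-Asp libraries (SD, n = 3). ABL2, a tyrosine kinase, measured 15.9, 9.02 ± 1.26 and 20.6 ± 5.85 CPM. The genes closest to PDE3A were MZT1 (r = 0.983), GNL2 (r = 0.965) and ERCC6L (r = 0.954). MZT1, a part of the gamma-tubulin complex, measured 31.8, 31.6 ± 3.61 and 26.5 ± 9.11 CPM. These values describe 7 libraries that share their scaling, with many genes compared, and no test was made of them.

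GNAI2, an inhibitory G protein subunit named here after its values were seen, measured 132, 128 and 129 CPM in control libraries, 31.6, 73.9 and 83.4 CPM in heat stress libraries and 67.8, 90.0 and 129 CPM with L-Asp. Its heat stress libraries lay below all control libraries and overlapped the L-Asp libraries (heat stress against control, edgeR, unadjusted p = 0.0508, adjusted p = 1).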
